A study of Homo sapiens with 9 samples.

Results

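The genes described here are 9 members of the ubiquitin and autophagy machinery, chosen by name: UBB, a polyubiquitin gene, and SQSTM1, NBR1, MAP1LC3B, GABARAPL1, GABARAPL2, WIPI1, ULK1 and BECN1. The choice was made with earlier results of these data known, so counts of called members are a description only. All 9 were found among the 26929 genes of the deposited expression table. They were measured in MV4-11, a long-established human line derived from acute myeloid leukaemia, at 24 h of JPX-0750, of JPX-0700 or of the vehicle DMSO, with 3 libraries in each of the 3 groups and 9 in all. The series title presents degraders acting on both STAT3 and STAT5, transcription factors of cytokine signalling. All groups shared the same medium with serum, antibiotics and glutamine, and no genotype differed between them. The labels give no dose, so the compounds could not be matched on it, and MV4-11 is a single line, so nothing here speaks of other leukaemia cells. The labels do not say whether replicates came from separate cultures, and p-values measure the spread between these samples only.

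Ubiquitin is a small protein that is attached to other proteins, often as a mark for destruction by the proteasome. RPS27A encodes it joined to a ribosomal protein, while UBB encodes a head-to-tail chain of ubiquitin that is cut into single units and is known to be inducible by stress. Macroautophagy encloses cargo in a double membrane and delivers it to the lysosome. The kinase ULK1 starts the process, BECN1 belongs to the lipid kinase complex that marks the growing membrane, and WIPI1 binds that lipid mark. The ATG8 family proteins encoded by MAP1LC3B, GABARAPL1 and GABARAPL2 are joined to the membrane, where the receptors SQSTM1 (p62) and NBR1 bind them while holding ubiquitinated cargo.

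Expression was read by QuantSeq, which sequences the 3′ end of polyadenylated RNA, so that a transcript gives reads in proportion to its number and not to its length. Levels are normalised counts, in which each library was divided by 1 factor by the authors. Reads on genes numbered 726043 to 1941860 in JPX-0750 libraries, 739418 to 1852375 in JPX-0700 libraries and 2701317 to 6305586 in DMSO libraries, and 1 read was worth between 0.383 and 4.61 normalised counts. Replicate 3 of JPX-0750 and of JPX-0700 and replicate 1 of DMSO detected 10407, 10027 and 9816 genes, against 13068 to 14616 in the other 6 libraries, and both treated replicates 3 stood apart from their partners (correlation of log2 values 0.611 to 0.686, against 0.843 and 0.886 between replicates 1 and 2 of each compound). Small nuclear, nucleolar and related structured RNAs took 11.1% to 13.5% of reads with JPX-0750, 8.15% to 10.1% with JPX-0700 and 0.0391% to 0.235% with DMSO. This difference accompanied every comparison with DMSO below, and its part in the results was not tested. Of 15 markers of myeloid leukaemia cells 13, 13 and 14 had reads with JPX-0750, JPX-0700 and DMSO, with CD14 at 0 throughout, HOXA9 at 0 with JPX-0750 and MPO at 0 with JPX-0700. Their summed level, as a share of the reads of a library (CPM), was 744 to 1389 with JPX-0750, 983 to 1047 with JPX-0700 and 2947 to 4100 with DMSO. LYZ alone gave 1886, 3051 and 1867 CPM in the DMSO libraries, and HOXA9 did not exceed 1.35 CPM in any library. Not every marker was lower with treatment: MEIS1 had 137, 143 and 91.7 CPM with JPX-0750, 79.8, 220 and 33.5 with JPX-0700, and 82.6, 49.8 and 76.6 with DMSO. Marker sums of T and NK, B and plasma, erythroid and megakaryocyte, and epithelial and fibroblast cells did not exceed 40.2 CPM in any library. In bulk RNA, fewer cells of a type and less RNA per cell cannot be told apart.

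Of the 8 members that could be tested, UBB was the 1 that passed the test with either compound. It rose 3.42-fold with JPX-0750 and 3.23-fold with JPX-0700 over DMSO. Its normalised count was 7244, 6303 and 6081 in the JPX-0750 libraries, 3885, 6093 and 9860 in the JPX-0700 libraries, and 1914, 1944 and 1860 in the DMSO libraries. All 6 treated libraries lay above all 3 DMSO libraries, and the JPX-0700 libraries spread most widely. The group means were 6542 ± 617 with JPX-0750, 6613 ± 3021 with JPX-0700 and 1906 ± 42.6 with DMSO (SD, n = 3 each). The log2 fold change was 1.77 ± 0.40 (SE) with JPX-0750, with an adjusted p of 0.0141 in limma, and 1.69 ± 0.40 with JPX-0700, with an adjusted p of 0.0155. Between the compounds, JPX-0750 less JPX-0700, UBB differed by 0.08 on the log2 scale with a 95% interval of -0.76 to 0.93, and the groups overlapped.

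By share of reads UBB was again higher with both compounds than with DMSO, with smaller folds. UBB took 1979, 1909 and 1880 CPM with JPX-0750, 1140, 1833 and 1915 with JPX-0700, and 789, 804 and 856 with DMSO. No treated library overlapped a DMSO library on this scale either. With all libraries scaled to the same total the log2 fold changes were 1.24 with JPX-0750 (adjusted p = 0.0558) and 0.96 with JPX-0700 (adjusted p = 0.0969), so that the calls were lost. The JPX-0750 call was also lost without JPX-0750 replicate 1 or 2 (adjusted p = 0.0980 and 0.0707) and without DMSO replicate 1 or 3 (0.0597 and 0.05002). The JPX-0700 call was lost without JPX-0700 replicate 3 (log2 fold change 1.35, adjusted p = 0.0570), without DMSO replicate 1 (0.0646) and when the 3 libraries that detected the fewest genes were left out (1.35, adjusted p = 0.0644), where JPX-0750 kept its call at 1.83 (adjusted p = 0.0268). The direction was upward under every setting run.

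**Figure D1:**
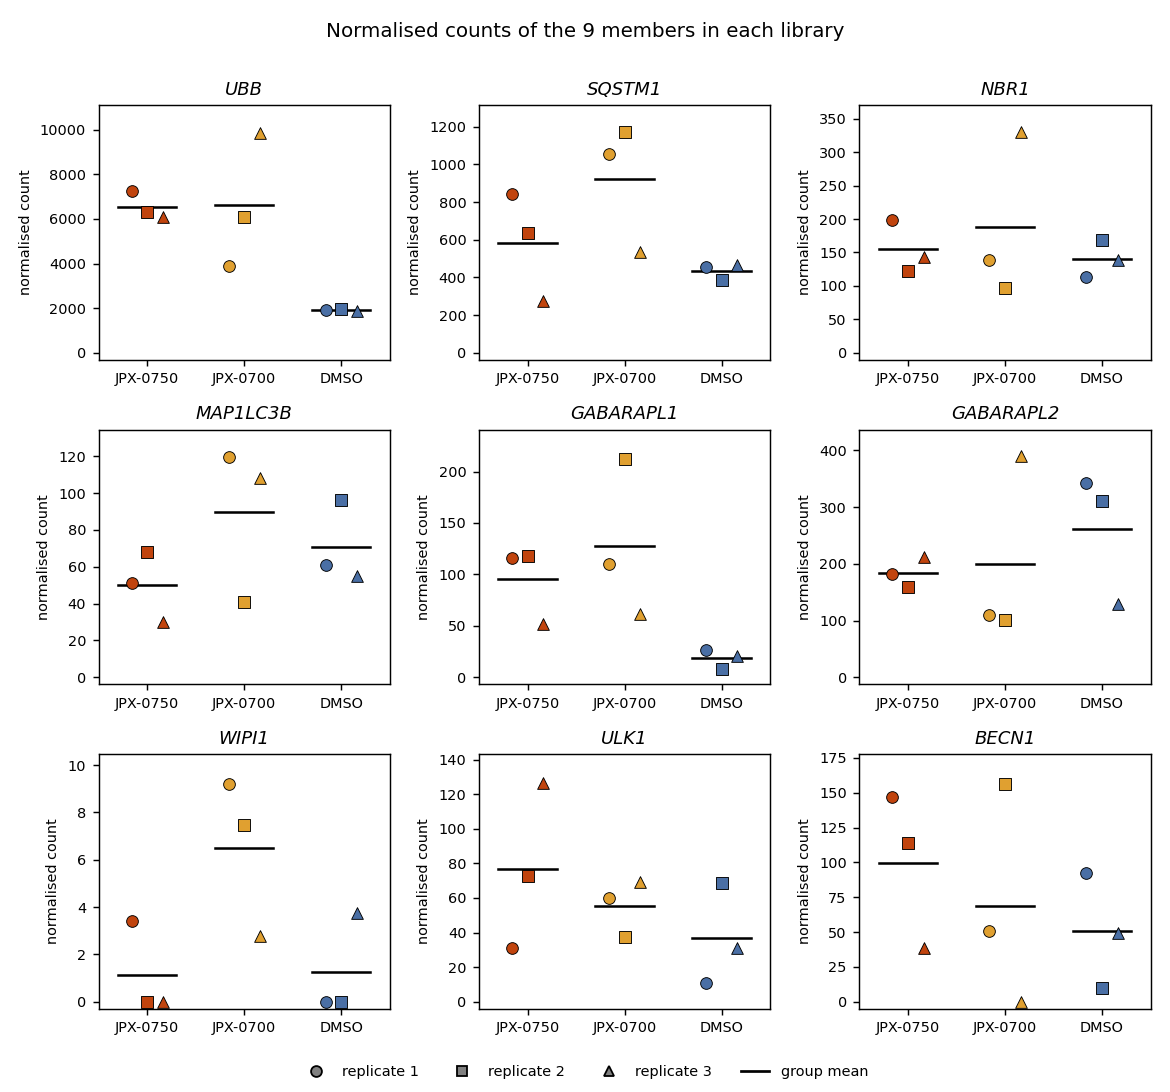
Normalised count (linear axis, starting at 0) of each of the 9 members in every library, with groups along the horizontal axis, symbols for replicates and a black line at each group mean. For UBB the treated libraries sit between 3885 and 9860 and the DMSO libraries between 1860 and 1944, while most other members overlap between groups.

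Read against all genes, 1 of the 8 members that could be tested rose with JPX-0750 and 0 fell, where 3.90% of the 12301 genes tested rose and 0.0732% fell. With JPX-0700 1 of the 8 rose and 0 fell, where 5.28% of all genes rose and 0.496% fell. Calls in either direction were 3.98% of all genes with JPX-0750 and 5.77% with JPX-0700. At an unadjusted p under 0.05 stood 2 of the 8 members with each compound, UBB and GABARAPL1, against 14.2% of all genes with JPX-0750 and 19.6% with JPX-0700. WIPI1, the ninth member, had a mean below 5 normalised counts over the 9 libraries and was not tested. Every JPX-0750 library lay above every DMSO library for 2 of the 8 members, UBB and GABARAPL1, against 19.7% of all genes. The same held for 3 of the 8 with JPX-0700, where SQSTM1 joined them, against 16.5% of all genes. None of the 8 lay wholly below DMSO with either compound, against 9.18% of all genes with JPX-0750 and 10.3% with JPX-0700. The median log2 fold change of the 8 was 0.73 with JPX-0750 and 0.56 with JPX-0700, and that of all genes tested was 0.26 and 0.14 for the same compounds. Total-sum scaling moved the median of all genes to -0.23 and -0.50, and scaling by the trimmed mean of M values (TMM) moved it to 0.01 and -0.13, so a small difference in a single member has no fixed sign. Of all calls against DMSO, 98.2% were higher with JPX-0750 and 91.4% with JPX-0700, which became 84.2% and 57.2% with total-sum scaling and 93.9% and 80.6% with TMM.

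**Figure D2:**
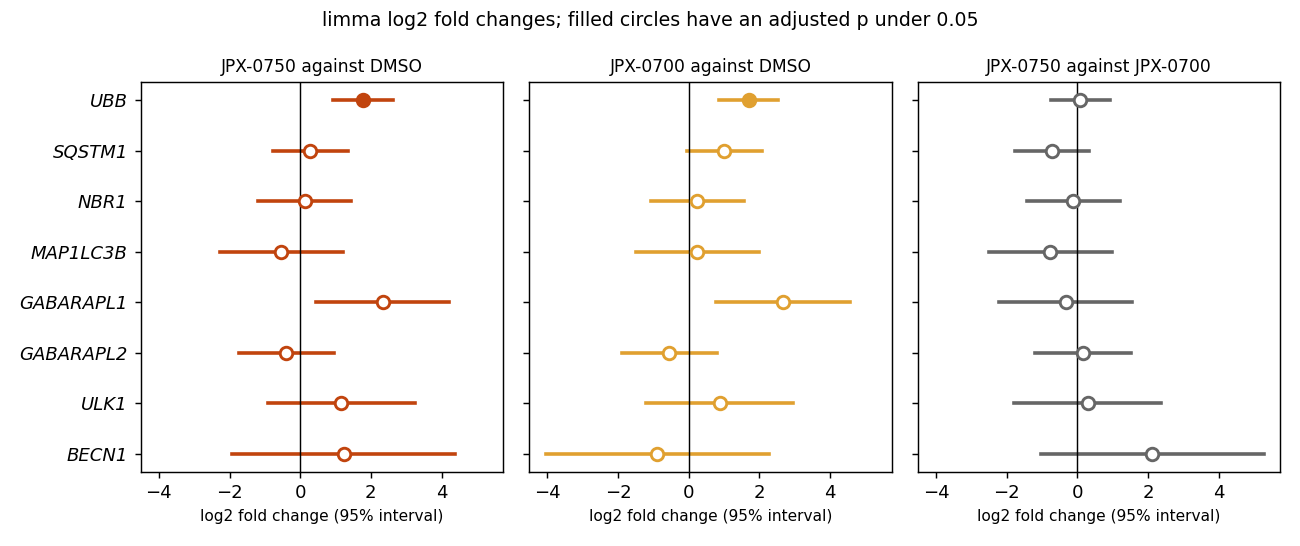
Log2 fold changes from limma (circles) with 95% intervals (bars) for the 8 tested members, one panel for each comparison, with filled circles for an adjusted p under 0.05. UBB alone is filled in both comparisons with DMSO, and every circle of JPX-0750 against JPX-0700 is open.

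RPS27A, a ribosomal fusion gene of ubiquitin outside the 9 members, did not pass the test with either compound. It averaged 15766 ± 2793 normalised counts with JPX-0750, 16449 ± 10230 with JPX-0700 and 16640 ± 8719 with DMSO (SD, n = 3 each). On the log2 scale it differed from DMSO by 0.05 with JPX-0750 and by -0.13 with JPX-0700 (adjusted p = 0.977 and 0.918 in limma), and both values changed sign under other settings. The spread among its JPX-0700 and DMSO replicates was wide, so that a moderate change would not have been detectable.

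The repeat structure of UBB bears on whether its reads can be told apart from those of its copies. In GENCODE release 29 transcripts the longest open frame of UBB held 3 units of 228 bases, with 94.7% to 96.5% identity among them. Of 483 windows of 70 bases, the read length, in the last 500 bases of UBB transcripts, 63 (13.0%) recurred exactly in the pseudogenes UBBP4 or UBBP1. UBBP4 and UBBP1 were not analysed here. For RPS27A 22.4% of such windows recurred, in its processed pseudogenes among others. These are shares of distinct windows and not of reads, so how far the values are affected is unknown. The sources used here do not say how reads that map to several places were treated.

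Promoters of the members, 250 bases before to 50 after each RefSeq start in GRCh38.p14, were read for motifs on both strands. The motifs were the heat shock element of 3 alternating units, its 2 facing units (GAANNTTC, held by the longer form), the antioxidant response element core (TGACNNNGC), the E-box of lysosomal genes (CACGTG), a composite C/EBP-ATF site (TGATGCAAT) and the cyclic AMP response element (TGACGTCA, which shares its first letters with the antioxidant core). The promoters of 3 members are shown, since they carry the matches found in the called member, in the member with the highest fold and in a member that had no call. They are UBB at chr17:16381091-16381390, GABARAPL1 at chr12:10212627-10212926 and MAP1LC3B at chr16:87392086-87392385, all on the plus strand, with the fixed letters of each match in capitals. The start used for UBB lies inside the span annotated for the gene.
UBB: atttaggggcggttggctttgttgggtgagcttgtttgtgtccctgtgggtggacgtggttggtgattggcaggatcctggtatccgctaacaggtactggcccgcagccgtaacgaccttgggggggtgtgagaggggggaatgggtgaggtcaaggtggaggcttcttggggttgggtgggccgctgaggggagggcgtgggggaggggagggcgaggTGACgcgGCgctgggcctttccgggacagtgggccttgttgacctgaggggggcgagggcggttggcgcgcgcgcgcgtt
GABARAPL1: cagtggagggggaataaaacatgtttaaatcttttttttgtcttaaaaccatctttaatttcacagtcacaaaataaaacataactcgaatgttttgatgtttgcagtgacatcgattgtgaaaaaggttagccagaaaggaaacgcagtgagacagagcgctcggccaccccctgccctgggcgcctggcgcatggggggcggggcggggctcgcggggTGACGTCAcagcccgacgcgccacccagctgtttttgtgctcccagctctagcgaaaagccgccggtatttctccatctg
MAP1LC3B: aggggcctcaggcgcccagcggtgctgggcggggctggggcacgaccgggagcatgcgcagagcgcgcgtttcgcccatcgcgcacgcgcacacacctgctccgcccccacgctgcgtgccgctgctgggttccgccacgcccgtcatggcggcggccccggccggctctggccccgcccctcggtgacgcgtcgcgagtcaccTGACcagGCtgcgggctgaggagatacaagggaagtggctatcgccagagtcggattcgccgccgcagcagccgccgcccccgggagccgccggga
A member was counted when any 1 of its promoter windows held the motif, whereas the shares of all promoters count each window by itself. Members with more than 1 window, among them UBB, SQSTM1 and NBR1, therefore had more room for a match. The antioxidant core stood in 2 of the 9 members, UBB and MAP1LC3B, and in 13.3% of the 35116 promoters of the table. The cyclic AMP element stood in 1 member, GABARAPL1, and in 1.85% of all promoters. The 2 facing heat shock units stood in 1 member, GABARAPL2, and in 6.77% of all promoters. The 3-unit form (0.490%), the E-box (7.26%) and the composite site (0.236%) stood in none of the member windows read. The UBB and BECN1 windows lay wholly inside the annotated spans of these genes. Sequence upstream of these spans was not read, and a motif there could not have been found.

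Of the cargo receptors, SQSTM1 was above DMSO with JPX-0700 but did not pass the test. It had 842, 637 and 277 normalised counts with JPX-0750, 1055, 1170 and 534 with JPX-0700, and 453, 386 and 465 with DMSO. All JPX-0700 libraries exceeded the DMSO libraries, whereas JPX-0750 replicate 3 fell below them, and replicate 3 was the lowest library of each compound. The log2 fold change was 0.29 ± 0.50 (SE) with JPX-0750 (adjusted p = 0.838) and 1.005 ± 0.50 with JPX-0700 (adjusted p = 0.282). Without the 3 libraries with the fewest genes it was 0.79 (adjusted p = 0.121) with JPX-0750 and 1.39 with JPX-0700, a 2.62-fold rise that passed the test (adjusted p = 0.0250). That setting called 2559 of the 12301 genes tested with JPX-0750 and 2601 with JPX-0700. By share of reads the JPX-0700 and DMSO libraries overlapped, at 310, 352 and 104 against 187, 160 and 214 CPM, and with total-sum scaling the log2 fold changes were -0.25 with JPX-0750 and 0.27 with JPX-0700. Between the compounds SQSTM1 was lower by 0.72 with JPX-0750 (95% interval -1.77 to 0.34).

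NBR1, the second receptor, which resembles SQSTM1 in its domains, had 199, 123 and 143 normalised counts with JPX-0750, 138, 96.9 and 331 with JPX-0700, and 114, 169 and 139 with DMSO. The groups overlapped, and JPX-0700 replicate 3 was the highest library. Its log2 fold changes were 0.12 ± 0.63 with JPX-0750 and 0.24 ± 0.63 with JPX-0700 (SE, adjusted p = 0.9502 and 0.859), and both were negative with total-sum scaling. The 95% intervals, -1.20 to 1.45 and -1.08 to 1.56, leave room for a change of more than 2-fold in either direction.

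GABARAPL1 had the highest fold of the ATG8 members. It had 116, 118 and 51.6 normalised counts with JPX-0750, 111, 212 and 61.1 with JPX-0700, and 26.9, 8.44 and 21.0 with DMSO. Every treated library stood above every DMSO library, also by share of reads, where the treated libraries ran from 15.96 to 35.8 with JPX-0750 and from 11.9 to 63.9 CPM with JPX-0700, against 3.49 to 11.1 with DMSO. The log2 fold changes were 2.33 ± 0.90 with JPX-0750 and 2.67 ± 0.90 with JPX-0700 (SE), or 5.03-fold and 6.34-fold, with adjusted p of 0.207 and 0.0972. Neither passed the test, which rested on 91, 103 and 91 reads in the JPX-0750, JPX-0700 and DMSO groups. Without the 3 libraries with the fewest genes the gene was called in both compounds, at 3.04 with JPX-0750 (adjusted p = 0.0136) and 3.42 with JPX-0700 (adjusted p = 0.00961). That setting called 2559 and 2601 of the 12301 genes tested for the same compounds. Without JPX-0700 replicate 3 alone GABARAPL1 was called in JPX-0700 (3.10, adjusted p = 0.0338). Between the compounds it differed by -0.34 (95% interval -2.22 to 1.55). The near-identical copy GABARAPL3 shared 1 of 1773 windows of 70 bases with it and had 54 reads in JPX-0750 replicate 3, 1 read each in JPX-0700 replicates 1 and 2, and 0 in the other libraries.

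The other ATG8 members gave no call. MAP1LC3B, whose product is the common marker of autophagosomes, had 51.3, 68.2 and 29.99 normalised counts with JPX-0750, 120, 41.0 and 108 with JPX-0700, and 61.1, 96.2 and 54.9 with DMSO. All 3 groups overlapped on this scale. By share of reads the JPX-0750 libraries (9.27 to 20.7 CPM) lay below the DMSO libraries (25.2 to 39.8). Its log2 fold changes were -0.53 ± 0.83 with JPX-0750 and 0.24 ± 0.83 with JPX-0700 (SE, adjusted p = 0.819 and 0.897), and it differed by -0.77 between the compounds (95% interval -2.51 to 0.97). Of 862 windows near its 3′ ends 103 (11.9%) recurred in MAP1LC3B2, which itself had 1, 3 and 2 reads with JPX-0750, JPX-0700 and DMSO.

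GABARAPL2 had 181, 159 and 212 normalised counts with JPX-0750, 111, 101 and 389 with JPX-0700, and 343, 310 and 129 with DMSO. JPX-0700 replicate 3 and DMSO replicate 3 departed from their partners in opposite directions, and the groups overlapped. Its log2 fold changes were -0.39 ± 0.64 with JPX-0750 and -0.55 ± 0.64 with JPX-0700 (SE, adjusted p = 0.832 and 0.655), negative under every setting run. Thus GABARAPL1 and GABARAPL2, which encode closely related proteins, lay on opposite sides of 0 in both comparisons with DMSO, and the difference between them was not tested.

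ULK1, the initiating kinase, had 30.8, 72.8 and 127 normalised counts with JPX-0750, 59.9, 37.3 and 69.5 with JPX-0700, and 10.8, 68.6 and 31.2 with DMSO. Its groups overlapped, and its log2 fold changes were 1.17 ± 0.99 and 0.88 ± 0.99 (SE, adjusted p = 0.629 and 0.644) with JPX-0750 and JPX-0700. Without DMSO replicate 1 they were 0.498 and 0.21, without DMSO replicate 2 they were 1.78 and 1.49, and when the 3 libraries that detected the fewest genes were left out they were 0.032 and 0.027. BECN1 had 147, 114 and 38.3 normalised counts with JPX-0750, 50.7, 157 and 0 with JPX-0700, and 92.5, 9.97 and 49.5 with DMSO. A library without a single BECN1 read (JPX-0700 replicate 3) and a wide range among DMSO libraries left its log2 fold changes at 1.23 ± 1.502 with JPX-0750 and -0.89 ± 1.502 with JPX-0700 (adjusted p = 0.753 and 0.771). Without JPX-0700 replicate 3 the JPX-0700 value was 1.28, so its sign rests on that library, and it was -1.57 or -2.37 without JPX-0700 replicate 1 or 2. Leaving out DMSO replicate 1 gave 1.89 with JPX-0750 and -0.23 with JPX-0700, and leaving out DMSO replicate 2 gave 0.35 and -1.77. With the 3 libraries that detected the fewest genes left out, BECN1 stood at 2.47 with JPX-0750 (5.54-fold, adjusted p = 0.0774) and at 1.94 with JPX-0700 (adjusted p = 0.140).

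WIPI1, the lipid-binding effector, was near the limit of detection. It had 1, 0 and 0 reads with JPX-0750, 2, 2 and 1 with JPX-0700, and 0, 0 and 7 with DMSO. Per scaled depth the ratio to DMSO was 0.717 with JPX-0750 (exact 95% counting interval 0.0159 to 5.58) and 4.72 with JPX-0700 (1.18 to 17.3). All DMSO reads came from 1 library, which these intervals, covering counting error only, do not reflect, and no molecular identifiers are named that would make reads independent molecules.

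All 9 members overlap other genes in the annotation, and the sources used here do not state which strand was counted. On the opposite strand MGAT4B overlaps SQSTM1 by 555 bases, FBXO31 overlaps MAP1LC3B by 8148 bases and PSME3 overlaps BECN1 by 8966 bases in GENCODE release 29. Summed over the 9 libraries these partners had 1498, 363 and 2194 reads. These overlaps are between whole GENCODE spans, whereas the reads come from 3′ ends. The GENCODE spans of MAP1LC3B (87383995 to 87404779, plus strand) and BECN1 (42810134 to 42833350, minus strand) reach past their RefSeq spans mainly on the 5′ side. Whether any overlap reaches a 3′ end was not examined, so shared reads are not established for these pairs. MRNIP overlaps SQSTM1 by more bases than MGAT4B does, 2946 on the opposite strand. It is not among the deposited genes under that name, so its reads could not be given. Whether this overlap reaches the 3′ end of SQSTM1 was not examined either. UBB (chromosome 17, 16380779 to 16382745), BECN1 (17, 42810132 to 42824282), NBR1 (17, 43170409 to 43211688) and WIPI1 (17, 68421281 to 68457496) lie on chromosome 17 in GRCh38.p14. GABARAPL1 (12, 10212877 to 10223128) and ULK1 (12, 131894622 to 131923150) lie on chromosome 12, GABARAPL2 (16, 75566379 to 75577881) and MAP1LC3B (16, 87392336 to 87404774) on chromosome 16, and SQSTM1 (5, 179806393 to 179838078) on chromosome 5.

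The direct comparison of JPX-0750 with JPX-0700 gave 0 calls among the 8 members and 0 among all 12301 genes in limma, 0.00% of them, with 395 genes (3.21%) at an unadjusted p under 0.05 and 0 calls by voom. None of the 8 members reached an unadjusted p of 0.05, and the groups overlapped for all 8, where 4.72% of all genes lay wholly above and 3.63% wholly below. The narrowest interval was that of UBB, and the widest that of BECN1 (-1.04 to 5.28 on the log2 scale). Differences within these intervals could not be told from 0, which does not show that the compounds act alike, and the doses are unknown.

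**Figure D3:**
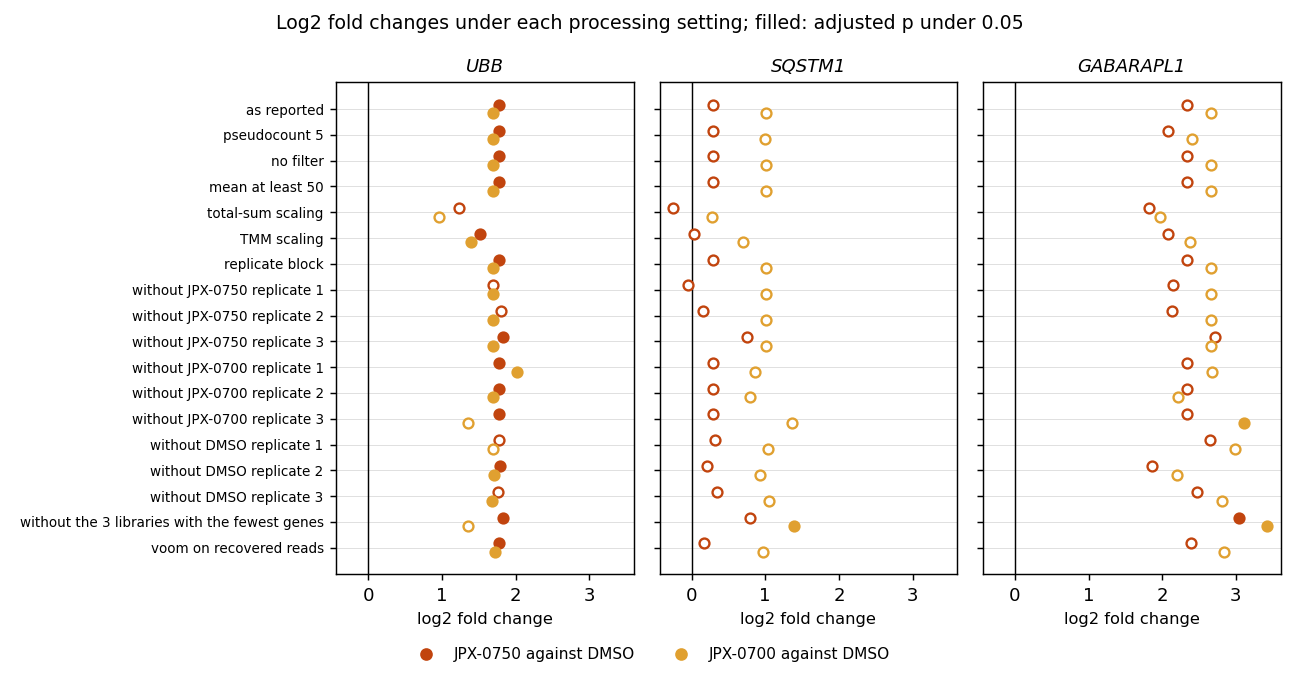
Log2 fold changes of UBB, SQSTM1 and GABARAPL1 for JPX-0750 and JPX-0700 against DMSO under the reported setting and 17 alternatives (rows), filled where the adjusted p was under 0.05. UBB is filled in most rows, and SQSTM1 and GABARAPL1 only in rows that leave out JPX-0700 replicate 3 or the 3 libraries with the fewest genes.

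The wider pathway was read from 9 lists of 87 genes, of which 79 could be tested. With JPX-0750 2 of the 79 rose and 0 fell, and with JPX-0700 5 rose and 0 fell, shares of the same order as those of all genes given above. The median log2 fold changes of the 79 were 0.13 and 0.21. Among 10 genes of ubiquitin supply, activation and recycling, 0 passed the test with JPX-0750 and 1 rose with JPX-0700. It was OTULIN, a deubiquitinase that cuts linear chains, with 322, 396 and 102 normalised counts with JPX-0750, 267, 265 and 486 with JPX-0700, and 42.2, 74.8 and 73.8 with DMSO. It rose 5.22-fold with JPX-0700 (adjusted p = 0.0353), while JPX-0750 gave 3.77-fold (adjusted p = 0.129). The OTULIN call with JPX-0700 was lost without any 1 library except JPX-0750 replicate 3 and JPX-0700 replicate 2 (adjusted p = 0.0561 to 0.157), with no filter (0.0534) and with total-sum or TMM scaling (0.126 and 0.0705). With JPX-0750 OTULIN was called without JPX-0750 replicate 3 (log2 fold change 2.52, adjusted p = 0.0332) and on leaving out the 3 libraries with the fewest genes (2.25, adjusted p = 0.00501).

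Of 15 other cargo receptors 0 passed the test with either compound. OPTN, a receptor for mitochondria and bacteria, had 147, 164 and 1.67 normalised counts with JPX-0750, 161, 138 and 156 with JPX-0700, and 62.9, 55.2 and 100.1 with DMSO, with adjusted p of 0.797 and 0.632. CALCOCO2, a receptor for bacteria and mitochondria as well, averaged 868 ± 80.6 with JPX-0750, 564 ± 315 with JPX-0700 and 737 ± 251 with DMSO (SD, n = 3 each). TAX1BP1, which binds ubiquitinated aggregates, averaged 858 ± 117 with JPX-0750, 1124 ± 520 with JPX-0700 and 923 ± 281 with DMSO. The adjusted p of CALCOCO2 and TAX1BP1 was 0.840 and 0.963 with JPX-0750 and 0.583 and 0.818 with JPX-0700. Of the other ATG8 genes GABARAP alone could be tested, with 281, 337 and 433 normalised counts with JPX-0750, 267, 268 and 409 with JPX-0700, and 855, 775 and 276 with DMSO, and it was not called. MAP1LC3A had 2, 2 and 3 reads with JPX-0750, JPX-0700 and DMSO, and MAP1LC3C had 0 in all libraries.

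In the lipid kinase complex of BECN1, 1 of 6 partners rose with each compound. This was PIK3C3, the catalytic subunit that makes the lipid WIPI1 binds, with 366, 341 and 283 normalised counts with JPX-0750, 355, 395 and 553 with JPX-0700, and 55.7, 50.2 and 122 with DMSO. Every treated library exceeded every DMSO library. PIK3C3 rose 4.65-fold with JPX-0750 (log2 fold change 2.22 ± 0.55 SE, adjusted p = 0.0278) and 6.03-fold with JPX-0700 (2.59 ± 0.55, adjusted p = 0.00742). The JPX-0750 call was lost without JPX-0750 replicate 1 or 2 or DMSO replicate 1 or 2 (adjusted p = 0.171, 0.140, 0.119 and 0.141) and by total-sum or TMM scaling (0.117 and 0.0663), and the JPX-0700 call by total-sum scaling alone (0.0572).

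Of 11 genes of ATG8 conjugation and processing, 6 partners of the initiating kinase and 9 genes of membrane supply, 0 passed the test with either compound, which does not show that they stayed level. Of 9 genes of autophagosome fusion 0 passed the test with JPX-0750 and 1 rose with JPX-0700. It was EPG5, a tether between autophagosomes and lysosomes, with 288, 241 and 33.3 normalised counts with JPX-0750, 143, 294 and 300.1 with JPX-0700, and 18.0, 21.9 and 38.8 with DMSO. It rose 9.06-fold with JPX-0700 (adjusted p = 0.0322), against 5.18-fold with JPX-0750 (adjusted p = 0.158). The EPG5 call with JPX-0700 was lost on leaving out JPX-0750 replicate 2 (adjusted p = 0.0505), JPX-0700 replicate 2 or 3 (0.0792 and 0.0707) or DMSO replicate 1 or 2 (0.124 and 0.11003), and with total-sum or TMM scaling (0.0972 and 0.0554). With JPX-0750 EPG5 was called without JPX-0750 replicate 3 (log2 fold change 3.35, adjusted p = 0.0183) and on leaving out the 3 libraries with the fewest genes (3.13, adjusted p = 0.00714).

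Of 12 tested genes in the list of autophagy regulators, 1 rose with JPX-0750 and 2 with JPX-0700. None of the transcription factors tested in that list was called with either compound. DDIT4 (REDD1), an inhibitor of the growth kinase mTORC1, which restrains ULK1, had 592, 450 and 342 normalised counts with JPX-0750, 429, 488 and 2156 with JPX-0700, and 56.6, 20.3 and 8.61 with DMSO. It rose 19.8-fold with JPX-0750 (log2 fold change 4.31 ± 0.73 SE, adjusted p = 0.00106) and 33.7-fold with JPX-0700 (5.08 ± 0.73, adjusted p = 0.000168), calls kept under every setting run. The log2 fold change with JPX-0750 was 4.98 without DMSO replicate 1 and 3.69 without DMSO replicate 3. With JPX-0700 it was 4.33 without JPX-0700 replicate 3, and leaving out DMSO replicate 1 or 3 gave 5.75 or 4.45. Without the 3 libraries with the fewest genes the JPX-0750 value was 5.18. TRIB3, a pseudokinase induced by the ATF4 pathway, had 78.7, 31.8 and 65.0 normalised counts with JPX-0750, 92.2, 63.4 and 425 with JPX-0700, and 0.898, 24.2 and 8.08 with DMSO. It rose 18.1-fold with JPX-0700 (adjusted p = 0.0423) against 7.36-fold with JPX-0750 (adjusted p = 0.239). The TRIB3 call was lost without any 1 library except JPX-0700 replicate 2 and DMSO replicate 2 (adjusted p = 0.0563 to 0.177), with no filter (0.0529) and with total-sum or TMM scaling (0.0869 and 0.0671). Against 4.18 over all libraries, TRIB3 with JPX-0700 stood at 3.18 on the log2 scale without DMSO replicate 1, 3.36 without JPX-0700 replicate 3 and 5.04 without DMSO replicate 2, and it was 2.36, or 5.12-fold (adjusted p = 0.0578), without the 3 libraries with the fewest genes.

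**Figure D4:**
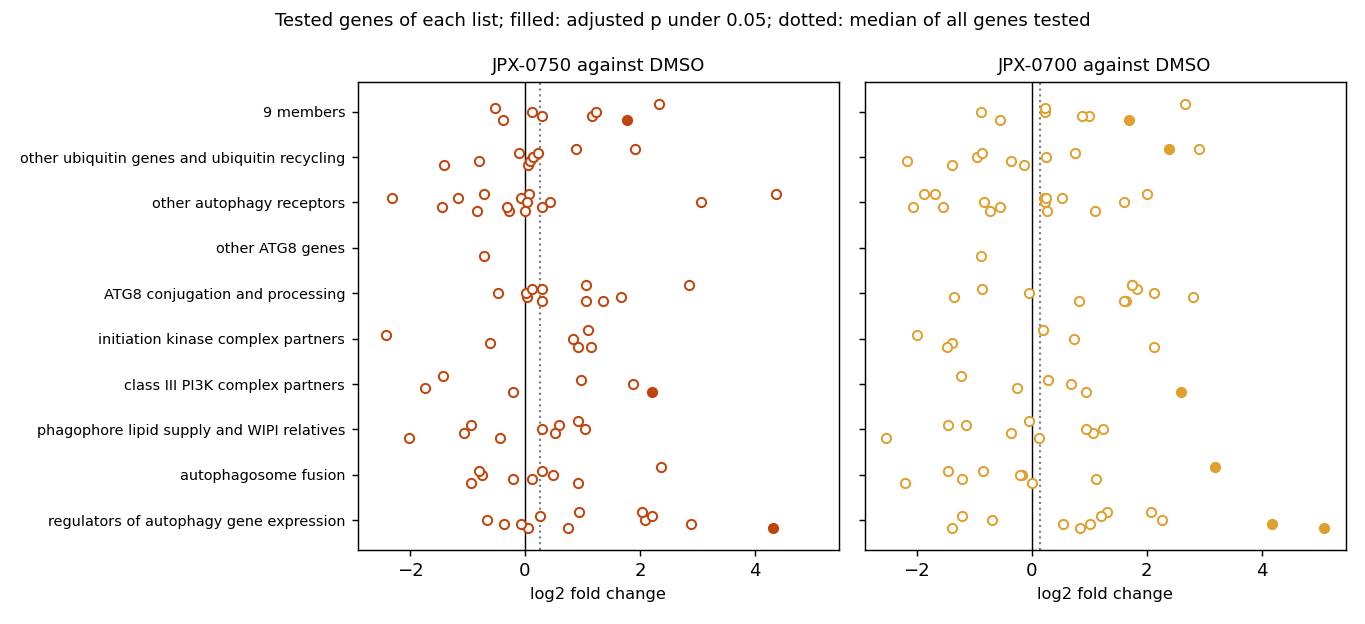
Log2 fold change of each tested gene in the 9 lists and among the members (rows), for JPX-0750 and JPX-0700 against DMSO, filled where the adjusted p was under 0.05, with a dotted line at the median of all genes tested. In each panel 1 member, UBB, is filled, and the filled genes of the lists number 2 with JPX-0750 and 5 with JPX-0700.

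The genes whose levels followed the members most closely were found by the Pearson correlation of log2 values over the 9 libraries, a description in which shared library effects and the group difference both enter. The 5 nearest to UBB were all nucleolar RNAs: SNORA68, SNORA55, SNORA7B, SNORD75 and SNORD3C, with r of 0.980 to 0.988. Their group means ran from 51.8 to 131 normalised counts with JPX-0750, from 93.3 to 220 with JPX-0700 and from 0 to 0.179 with DMSO, so the genes nearest to UBB were structured RNAs that were high in treated libraries and near 0 in DMSO libraries. Whether the level of UBB depends on them was not tested. The 5 nearest to SQSTM1 were GTF2IP20, HACE1, CPM, PPM1H and FAM13A, with r of 0.933 to 0.962. Among the members, the correlation of UBB was 0.76 with GABARAPL1, 0.32 with SQSTM1 and -0.12 with MAP1LC3B, and that of SQSTM1 was 0.75 with GABARAPL1 and -0.63 with GABARAPL2.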

How the data were processed

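QuantSeq 3′ RNA libraries of MV4-11 cells were analysed, 3 each of JPX-0750, JPX-0700 and DMSO at 24 h, grouped by their titles. Per the submitters' processing notes the tools were FastQC 0.11.9, STAR 2.4.2a, SAMtools 1.4, featureCounts 2.0.3 and DESeq2, with build GRCh38, their roles not stated; the annotation, the strand counted and the handling of multiply mapped reads were not stated. The deposited values are counts divided by 1 size factor per library by the authors: the smallest value above 0 of a library divided all its other values into whole numbers (tolerance 1e-06), which gave the reads per gene and library totals of 726043 to 6305586. No 2 libraries held identical values.

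The 9 genes and the lists were chosen with earlier results of these data known. log2(normalised count + 1) was fitted with limma 3.58.1 in R 4.3.3, with a mean-variance trend, 1 mean per group over all 9 libraries and 6 residual degrees of freedom, for the 12301 genes with a mean of at least 5; 8846 genes were at 0 throughout. Tests were two-sided, with Benjamini-Hochberg adjustment over all tested genes and a threshold of 0.05. Fold changes are differences between group means of log2 values. The added 1 tends to shrink those of low genes, while a single library near 0 can move them in either direction. For BECN1 with JPX-0700 the log2 fold change was -0.89, although the mean normalised count was 69.1 against 50.7 with DMSO. The procedure was tested on simulated counts that had the same dispersion for every gene and no departing library. That test therefore does not cover libraries that depart from their partners, as some did here. Exact counting intervals used Python 3.11.15 and SciPy 1.17.1. Named genes were the members, the genes called in the lists, RPS27A, OPTN, CALCOCO2 and TAX1BP1, and the 5 tested genes most correlated with UBB and with SQSTM1. Overlap partners and ATG8 relatives were added to describe where reads might be shared. Some genes of the lists are not reported here and were left out of the list counts. Alternatives were a pseudocount of 5, no filter, a mean of at least 50, total-sum and TMM scaling, a replicate block, leaving out each library, and leaving out the 3 libraries with the fewest genes; voom on recovered reads and a block within the JPX libraries were added after the data were seen. Deviations of same-numbered JPX-0750 and JPX-0700 libraries correlated at 0.129, 0.171 and 0.190, each above the cut of 0.1 used to pair them. JPX-0750 replicate 1 with JPX-0700 replicate 2 also passed it (0.153), and the other differently numbered JPX pairs ran from -0.198 to 0.0657. Replicate 1 of JPX-0750 and of JPX-0700 passed it with DMSO replicate 3 (0.130 and 0.188). The cut therefore does not establish a pairing, and the labels do not say what a number stands for.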

Additional observations from a re-analysis of the deposited data

How the results depend on the processing

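The count of members called against DMSO, 1 with JPX-0750 and 1 with JPX-0700, became 0 and 0 with total-sum scaling and 2 and 2 when the 3 libraries that detected the fewest genes were left out, and ran from 0 to 1 for either compound when single libraries were left out. The members behind equal counts differed. Without the 3 libraries they were UBB and GABARAPL1 with JPX-0750, and SQSTM1 and GABARAPL1 but not UBB with JPX-0700. Without JPX-0700 replicate 3 the 1 member called with JPX-0700 was GABARAPL1 and not UBB. Of the 12301 genes tested, 489 were called with JPX-0750 and 710 with JPX-0700. Without the 3 libraries with the fewest genes (replicate 3 of each compound and replicate 1 of DMSO) 2559 and 2601 of the 12301 were called. Calls in that setting were thus frequent among all genes and not only among members. The numbers were 945 and 1299 with voom on recovered reads, and 254 to 1096 and 390 to 954 without single libraries. The cause was not tested. The following log2 fold changes, none of them called, changed sign. With JPX-0750 against DMSO, total-sum scaling gave -0.25 for SQSTM1, -0.41 for NBR1, -0.48 for RPS27A and -0.24 for CALCOCO2, TMM gave -0.14 for NBR1 and -0.21 for RPS27A, and leaving out the 3 libraries gave 1.05 for OPTN and 0.010 for TAX1BP1. With JPX-0700 against DMSO, total-sum scaling gave -0.49 for NBR1, -0.48 for MAP1LC3B and -0.52 for TAX1BP1, TMM gave -0.062 for NBR1, -0.061 for MAP1LC3B and -0.089 for TAX1BP1, and leaving out the 3 libraries gave -0.40 for NBR1, -0.050 for MAP1LC3B, 1.94 for BECN1 and 0.17 for CALCOCO2. Among the 8 members between the compounds, NBR1 gave 0.077 with total-sum scaling and 0.43 without the 3 libraries. Without single libraries the ranges of values that changed sign were, with JPX-0750 against DMSO, -0.046 to 0.76 for SQSTM1, -0.068 to 0.28 for NBR1, -0.38 to 0.44 for RPS27A, -1.84 to 1.13 for OPTN, -0.0092 to 0.51 for CALCOCO2 and -0.27 to 0.16 for TAX1BP1. With JPX-0700 against DMSO they were -0.26 to 0.62 for NBR1, -0.039 to 0.72 for MAP1LC3B, -2.37 to 1.28 for BECN1, -0.59 to 0.51 for RPS27A, -0.87 to 0.081 for CALCOCO2 and -0.12 to 0.59 for TAX1BP1. Between the compounds they were -0.25 to 0.42 for UBB, -0.49 to 0.39 for NBR1, -0.77 to 0.12 for GABARAPL1, -0.18 to 0.79 for GABARAPL2, -0.18 to 0.82 for ULK1 and -0.046 to 3.60 for BECN1. With the replicate block 473 genes were called with JPX-0750 and 694 with JPX-0700, UBB kept its calls (adjusted p = 0.0205 and 0.0221 in limma), and within the JPX libraries alone the paired fit called 0 genes; the block changed no other member call. Same-numbered treated and DMSO libraries did not deviate together (correlations -0.143 to -0.0436). The planned edgeR alternative was not run, and voom on the recovered reads was used in its place. With 726043 to 1941860 reads per treated library, members of under about 100 normalised counts rest on few reads.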
